A study of Mus musculus with 6 samples.

Results

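The genes described here are 8 interferon-inducible GTPase genes, 4 of the immunity-related GTPase (IRG) family and 4 of the guanylate-binding protein (GBP) family. They are Iigp1c, Irgm1, Irgm2, Igtp, Gbp2, Gbp3, Gbp7 and Gbp9, found by symbol among the 50763 genes of the deposited table. All 8 passed the filter on low counts, among 19313 genes that did. The set was picked because Iigp1c was lower in every EGFR-DN library than in every EGFR-WT library. The contrast of the members between those groups is therefore described here, and no p-value is read as a test of them. RNA was sequenced in bulk from bone marrow CD34- KSL cells, which lack lineage markers, carry Kit and Sca-1 and are enriched for haematopoietic stem cells. All mice carried Tal1-tTA, a doxycycline-repressed activator driven by the blood stem cell gene Tal1, and its target transgene TRE-EGFR-tr. EGFR-DN mice (3 libraries) were kept without doxycycline and expressed, beside wild-type epidermal growth factor receptor (EGFR), a form of it from which the cytoplasmic kinase domain is deleted. EGFR-WT mice (3 libraries) drank 0.2 g/L doxycycline and by design expressed wild-type EGFR alone. Both forms of EGFR are given as designed, not as measured in these cells. Transgene and doxycycline therefore differed together between the groups and cannot be told apart. The labels give no age, and do not say whether replicates were single animals.

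Interferon-inducible GTPases are made at a low level in resting cells and strongly on interferon signalling, above all that of interferon-gamma. The proteins bind GTP and gather on membranes that enclose intracellular microbes. The Irgm proteins hold the other IRG proteins inactive on the cell's own membranes, and GBP proteins coat and open pathogen vacuoles. In mice, Irgm1 is also known for keeping haematopoietic stem cells from proliferating in excess.

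Stretches of the members' promoters are printed here because they hold motif letters, which the choice of the members did not use. A pair of motifs was searched on both strands in the 250 bases before each start listed by RefSeq (build GRCm38.p6). These were the interferon-stimulated response element (ISRE), taken as GAAA, any 2 bases and GAAA again, or TTTC, any 2 bases and TTTC on the other strand, and the gamma-activated site (GAS), taken as TTCNNNGAA, which reads alike on both strands. RefSeq entries were matched for 6 members, Irgm1, Irgm2, Igtp, Gbp2, Gbp3 and Gbp7. Each of the 6 held an ISRE match upstream of a listed start, and 3 of them, Irgm2, Igtp and Gbp7, also a GAS match. Over all 32851 promoters of the same length, 2.98% held an ISRE match and 7.02% a GAS match. The matching stretches follow, on the strand of the gene, with ISRE and GAS letters, which did not overlap each other, in capitals. In Igtp (chr11:58199496-58199546, plus strand) and Irgm2 (chr11:58214887-58214937, plus strand) a GAS stood just before an ISRE:
Igtp: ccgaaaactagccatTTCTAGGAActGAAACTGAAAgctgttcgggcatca
Irgm2: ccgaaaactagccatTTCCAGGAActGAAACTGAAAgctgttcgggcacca
Irgm1 (chr11:48871421-48871465, minus strand), Gbp2 (chr3:142620589-142620628, plus strand) and Gbp3 (chr3:142559984-142560029, plus strand) held ISRE letters only. Those of Irgm1 and Gbp3 were 2 overlapping matches each, and the other listed start of Gbp3 held neither motif:
Irgm1: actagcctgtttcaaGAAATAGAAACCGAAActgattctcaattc
Gbp2: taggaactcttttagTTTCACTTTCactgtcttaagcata
Gbp3: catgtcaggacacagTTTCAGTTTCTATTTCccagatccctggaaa
Gbp7 (chr3:142530215-142530307, plus strand) held 2 GAS matches and then an ISRE match:
Gbp7: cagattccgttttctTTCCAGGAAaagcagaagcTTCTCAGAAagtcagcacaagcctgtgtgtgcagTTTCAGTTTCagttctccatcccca
A match is a run of letters, not a measured binding site.

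The libraries differed in ways that touch the members. Egfr, which checks the labels, was at 117, 135 and 50.3 CPM in EGFR-DN and at 0.191, 0.160 and 0.237 CPM in EGFR-WT (counts per 10⁶ after TMM scaling, CPM). It was the 1 gene with an adjusted p under 0.05 by edgeR (log2 fold change 9.01, SE 0.53, adjusted p = 0.00981), and its value does not tell transgene from native transcript. Each EGFR-WT library held 6 estimated counts of Egfr, near the floor of 3 counts. The 6 libraries held 24073133 to 36032428 counts each. One of them, EGFR-DN replicate 3, differed from the others in having 25.4% of its counts in 8 rRNA-like genes, against 4.71% to 6.15% in the other libraries. Fold changes and medians printed below that turned, or moved by over 1.5 times, without it are given both ways. Of the genes of the sort, Kit was at 736, 806 and 1962 CPM in EGFR-DN and 806, 786 and 771 CPM in EGFR-WT, and Ly6a (Sca-1) at 46.7 to 70.7 CPM in EGFR-DN and 50.8 to 78.4 CPM in EGFR-WT. The stem cell gene Procr was at 22.9, 32.4 and 15.1 CPM in EGFR-DN and 74.95, 43.0 and 50.4 CPM in EGFR-WT, without overlap (log2 fold change -1.25, SE 0.32, edgeR adjusted p = 0.690). Over 11 stem cell genes, 7 lay below 0, with a median of -0.12, or -0.60 without EGFR-DN replicate 3, and the part of this in the levels of the GTPase genes was not tested. Cd34 transcript was present at 378 to 569 CPM in EGFR-DN and 318 to 410 CPM in EGFR-WT, although the cells were sorted as CD34-. The sort was on surface protein and the values here are of transcript. The T cell gene Cd3e and the neutrophil gene Ly6g did not exceed 0.254 CPM in any library.

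Iigp1c, an interferon-inducible GTPase gene by its symbol, was the member with the largest difference. It was at 10.6, 15.5 and 14.2 CPM in EGFR-DN replicates 1 to 3, against 34.1, 39.6 and 26.5 CPM in EGFR-WT replicates 1 to 3. The highest EGFR-DN library lay below the lowest EGFR-WT library. The means were 13.4 ± 2.56 CPM in EGFR-DN and 33.4 ± 6.58 CPM in EGFR-WT (SD, n = 3 each), a log2 fold change of -1.32 (SE 0.22). These are the values that chose the set, so they carry no test. Estimated counts of Iigp1c were 362, 546 and 280 in EGFR-DN and 1072, 1488 and 673 in EGFR-WT, far above the floor of 3 counts. Its log2 fold change lay between -1.46 and -1.17 when each library was left out in turn. Set against Gbp7 within each library, a ratio that does not depend on scaling, Iigp1c was at 0.0745, 0.107 and 0.0761 in EGFR-DN and at 0.192, 0.227 and 0.169 in EGFR-WT. Set against the family gene Iigp1, it was at 0.237, 0.277 and 0.216 in EGFR-DN and at 0.307, 0.292 and 0.380 in EGFR-WT, a smaller difference. Both ratios carry the contrast that chose the set. None of the 6 estimated counts of Iigp1c was a whole number, as for Irgm2, Igtp, Gbp3, Gbp7 and Gbp9. The counts of these genes may rest in part on how the authors' tool divided reads between genes, but fractions alone do not show this. No position, length or promoter of Iigp1c was used here. In bulk RNA, fewer cells that make a transcript and less of it per cell cannot be told apart, here and in all that follows.

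The 3 Irgm genes, whose proteins regulate the other IRG proteins, had unlike values. Irgm1 was at 92.4, 97.5 and 154 CPM in EGFR-DN and at 120, 135 and 108 CPM in EGFR-WT, so the groups overlapped and EGFR-DN replicate 3 was the highest of all 6 libraries. Its log2 fold change was -0.08 (SE 0.23), -0.36 without EGFR-DN replicate 3 and -0.16 without EGFR-WT replicate 3. It was 0.05 without EGFR-DN replicate 1, 0.01 without EGFR-DN replicate 2 and 0.00 without EGFR-WT replicate 2. Irgm2 was at 40.8, 53.5 and 58.2 CPM in EGFR-DN and at 88.6, 83.2 and 55.4 CPM in EGFR-WT. Only EGFR-WT replicate 3 reached into the EGFR-DN range, and the log2 fold change was -0.58 (SE 0.23). Igtp, also called Irgm3, was at 72.0, 78.3 and 52.7 CPM in EGFR-DN and at 106, 132 and 69.3 CPM in EGFR-WT. It too overlapped through EGFR-WT replicate 3, with a log2 fold change of -0.60 (SE 0.27), or -0.38 without EGFR-WT replicate 2. Irgm2 and Igtp, whose promoter stretches printed above are nearly alike, shared 4.02% and 8.37% of the 75-base windows of their longest transcripts, so few reads of this length could be split between them.

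The differences of the 4 GBP genes were all smaller than that of Iigp1c. Gbp2 was at 35.5, 36.9 and 31.8 CPM in EGFR-DN and at 49.2, 52.9 and 38.7 CPM in EGFR-WT. It was the other member whose groups did not overlap, with means of 34.7 ± 2.64 CPM in EGFR-DN and 47.0 ± 7.37 CPM in EGFR-WT (SD, n = 3 each) and a log2 fold change of -0.43 (SE 0.17). Gbp3 was at 52.0, 36.9 and 24.3 CPM in EGFR-DN and at 37.8, 49.2 and 39.6 CPM in EGFR-WT. The EGFR-DN libraries enclosed all EGFR-WT values, and the log2 fold change of -0.16 (SE 0.28) became 0.07 without EGFR-DN replicate 3, -0.47 without EGFR-DN replicate 1, -0.24 without EGFR-WT replicate 1 and -0.04 without EGFR-WT replicate 2. Gbp7, the most abundant member in CPM, was at 142, 145 and 187 CPM in EGFR-DN and at 177, 174 and 157 CPM in EGFR-WT. The groups overlapped through the high value of EGFR-DN replicate 3, and the log2 fold change was -0.10 (SE 0.17), or -0.24 without that library. For Gbp7 it was -0.03 on leaving out EGFR-DN replicate 1, -0.06 on leaving out EGFR-DN replicate 2 and -0.16 on leaving out EGFR-WT replicate 3. Gbp9 was at 10.2, 17.7 and 32.5 CPM in EGFR-DN and at 38.7, 25.4 and 21.6 CPM in EGFR-WT. Its EGFR-DN values spread the most of any member, with a coefficient of variation of 56.4%, and its log2 fold change was -0.51 (SE 0.43). That value was -1.04 without EGFR-DN replicate 3, -0.19 without EGFR-DN replicate 1 and -0.25 without EGFR-WT replicate 1.

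**Figure D1:**
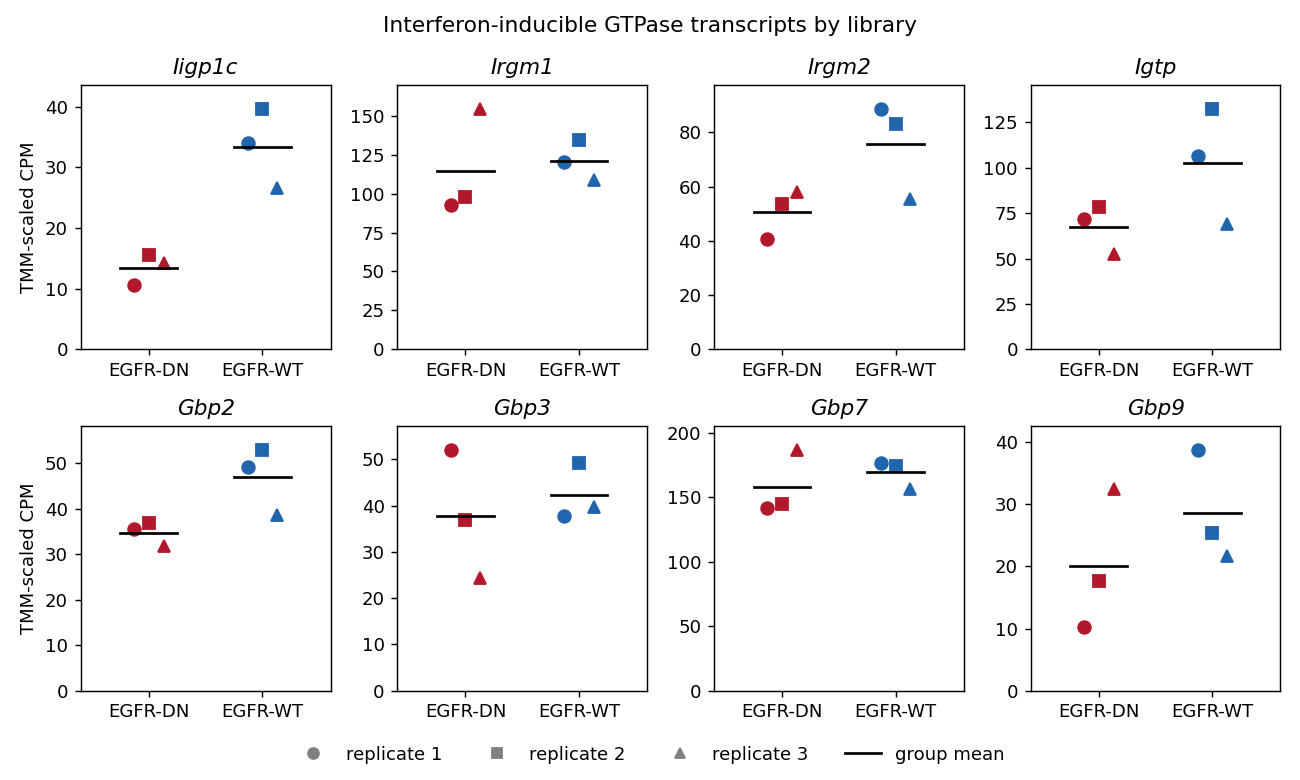
Each panel plots TMM-scaled CPM of 1 member on a linear axis from 0, with 1 point per library, EGFR-DN left and EGFR-WT right, and a line at the group mean. Iigp1c and Gbp2 are the panels in which the groups do not overlap, and in 7 of 8 panels EGFR-WT replicate 3 is the lowest EGFR-WT library.

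Counted together, 8 of 8 members had a log2 fold change below 0, with a median of -0.47, and -0.42 without EGFR-DN replicate 3. Over all genes tested the median was 0.01 and 49.0% lay below 0. The groups did not overlap for 2 of the 8, both lower in EGFR-DN, against 8.72% of all genes that lay lower without overlap. By the quasi-likelihood test of edgeR with Benjamini-Hochberg adjustment, 0 of the 8 had an adjusted p under 0.05, against 0.00518% of all genes in either direction. Without EGFR-DN replicate 3 edgeR called 0 of 8, against 0.286% of all genes. Since the same contrast chose the set, these counts are no test of it and nothing is read from these shares. For the same reason no calls at an unadjusted p or by other tests are given for the members. The shares of all genes are given for use below. At an unadjusted p under 0.05 by edgeR they were 2.40% lower, 4.30% higher and 6.69% in either direction. With the adjusted p of DESeq2 they were 0.138% lower, 0.360% higher and 0.498% in either direction.

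The libraries of a group did not rank alike for every member. EGFR-WT replicate 3 was the lowest of its group for 7 of 8 members, all but Gbp3, and replicate 2 the highest for 5. Over the 25 tested genes of the whole IRG and GBP family EGFR-WT replicate 3 was the lowest EGFR-WT library for 21. In EGFR-DN, replicate 1 was the lowest for Iigp1c, Irgm1, Irgm2, Gbp7 and Gbp9, and replicate 3 the lowest for Igtp, Gbp2 and Gbp3. Replicate 3, the rRNA-rich library, was at the same time the highest of its group for Irgm1, Irgm2, Gbp7 and Gbp9. The part of RNA quality in these differences was not tested.

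Levels of different genes were compared per length, as CPM per kilobase of the longest GENCODE M21 transcript, for the 7 members with a length. Over the 6 libraries Igtp averaged 42.1 ± 14.3 CPM per kilobase and stood first, ahead of Irgm1 at 30.8 ± 6.14 and Gbp7 at 29.2 ± 3.27 (SD, n = 6). Igtp lay above Irgm1 in 5 of 6 libraries, all but EGFR-DN replicate 3. Irgm1 and Gbp7 did not differ beyond their spread, and Irgm1 was the higher in 3 of 6. Irgm2 at 17.9 ± 5.27, Gbp2 at 16.2 ± 3.31 and Gbp3 at 14.9 ± 3.69 CPM per kilobase formed a lower level, below Gbp7 in every library for Irgm2, and neighbours in it kept their order in 5 of 6 libraries with overlapping spreads. Gbp9 was the lowest at 4.83 ± 2.03 CPM per kilobase, below Gbp3 in 6 of 6 libraries. With the median length of the coding transcripts Irgm1 came first at 54.4 CPM per kilobase, before Igtp at 46.5, and Gbp3 moved to the fourth place at 24.4.

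**Figure D2:**
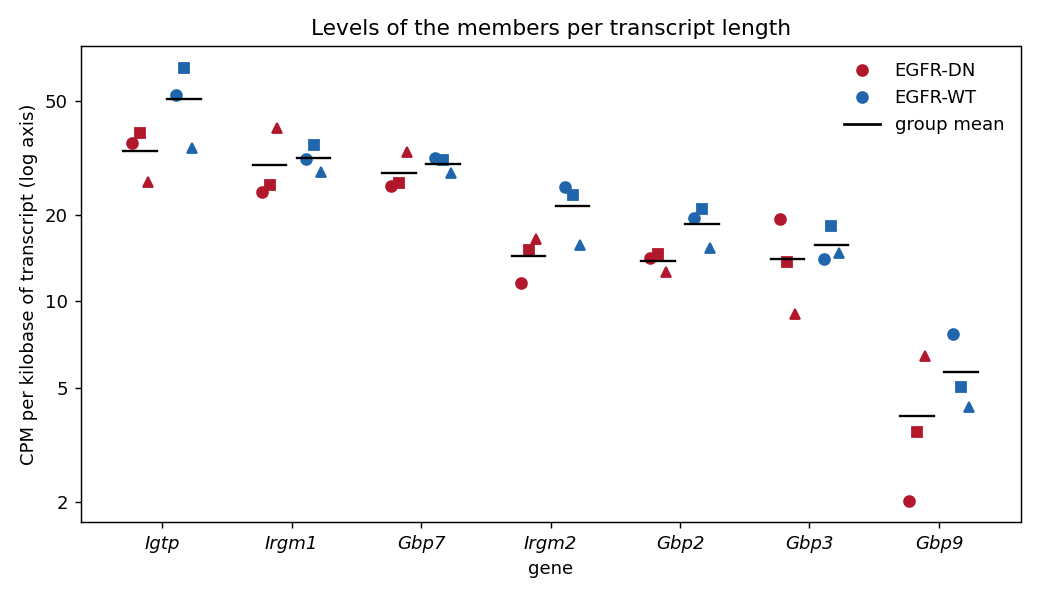
Points give CPM per kilobase of the longest transcript on a log axis for the 7 members with a length, EGFR-DN left of EGFR-WT for each gene, with circles, squares and triangles for replicates 1, 2 and 3 and a line at each group mean. Igtp, Irgm1 and Gbp7 lie highest and Gbp9 lowest, at 3.99 CPM per kilobase in EGFR-DN and 5.67 in EGFR-WT.

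The other IRG and GBP genes of the table were set beside the members from a list of 21 symbols, of which 20 were found and 17 tested. Of the 17, 14 had a log2 fold change below 0, with a median of -0.75, or -0.79 without EGFR-DN replicate 3. The groups did not overlap for 6 that were lower in EGFR-DN and 2 that were higher, against 8.72% and 9.21% of all genes. By edgeR 0 of the 17 had an adjusted p under 0.05, and 6 lower and 2 higher had an unadjusted p under 0.05, against 2.40% and 4.30% of all genes. DESeq2 called 3 lower and 1 higher at an adjusted p under 0.05, against 0.138% and 0.360% of all genes, and limma-voom 0. Members and other genes together came to 25 tested genes, of which 22 lay below 0.

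Iigp1, or Irga6, an effector that is loaded onto vacuoles, was at 44.6, 56.0 and 65.8 CPM in EGFR-DN and at 110.8, 136 and 69.8 CPM in EGFR-WT. The groups did not overlap, by a narrow margin, and the log2 fold change was -0.93 (SE 0.27, edgeR adjusted p = 0.690). Its neighbours Gm4841 and F830016B08Rik were at -0.98 (SE 0.23) and -0.90 (SE 0.40) on the same log2 scale, and DESeq2 called Gm4841 (adjusted p = 0.04998). Tgtp2 and Tgtp1, which encode the effector Irgb6, share 85.2% and 87.7% of their 75-base windows with other counted genes, so their reads can be told apart only in part. Summed, they were at 398, 479 and 467 CPM in EGFR-DN and at 766, 912 and 603 CPM in EGFR-WT, again without overlap. Tgtp2 was the most abundant gene of the family per length, at 187 CPM per kilobase. Ifi47, or Irgd, was at -0.25 (SE 0.25) and Gm12250, or Irgb10, at -0.79 (SE 0.40), both with overlap and both lowest in EGFR-DN replicate 3. Without that library they were at -0.04 (Ifi47) and -0.48 (Gm12250).

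A pair of IRG genes lay the other way. 9930111J21Rik1 was at 17.5, 15.8 and 16.5 CPM in EGFR-DN and at 6.61, 6.69 and 8.24 CPM in EGFR-WT, without overlap. The log2 fold change was 1.21, with an SE of 0.18 and an adjusted p of 0.590 by edgeR. DESeq2 called 9930111J21Rik1 (adjusted p = 1.152e-04), and so did edgeR without EGFR-DN replicate 3 (adjusted p = 0.0441). Its near copy 9930111J21Rik2, or Irgb5, was at 5.48 ± 0.535 CPM in EGFR-DN and 2.87 ± 0.331 CPM in EGFR-WT (SD, n = 3 each; log2 fold change 0.93, SE 0.23). These genes share 70.9% and 44.4% of their 75-base windows with other counted genes, so their sum is the safer value. It was 22.1 ± 1.26 CPM in EGFR-DN and 10.05 ± 1.19 CPM in EGFR-WT (SD, n = 3 each). Of 10 other family genes with a RefSeq promoter, 6 held an ISRE match and 5 of them a GAS match as well. Those without either were 9930111J21Rik1, 9930111J21Rik2, Gm5431 and Ifi47, and of these Ifi47 lay below 0. Whether the motifs go with the direction of the difference was not tested. Gm5431, the third gene above 0, averaged under 1 CPM in each group.

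By position in GENCODE M21 the tested genes of the family other than Iigp1c, which was not placed, lie in groups of neighbours, 1 each on chromosomes 3, 5 and 18 and 2 on chromosome 11. On chromosome 3, which holds Gbp2, Gbp3, Gbp7 and Gbp5, the 4 tested genes had a median log2 fold change of -0.30. On chromosome 5, with Gbp4, Gbp6, Gbp8, Gbp9, Gbp10 and Gbp11, 6 of 6 lay below 0 and the median was -0.65. That median was -1.09 without EGFR-DN replicate 3, and relative to the EGFR-WT mean the median gene stood at -1.40, -0.72 and -0.0030 in EGFR-DN replicates 1 to 3. In EGFR-WT replicates 1 to 3 it stood at 0.33, 0.16 and -0.43, so the groups overlapped. Gbp6 was at 34.1, 47.9 and 50.7 CPM in EGFR-DN and at 108, 95.8 and 66.3 CPM in EGFR-WT, without overlap (log2 fold change -1.02, SE 0.24, edgeR adjusted p = 0.690; DESeq2 adjusted p = 0.0374). Gbp10 was at 2.80, 3.72 and 6.79 CPM in EGFR-DN and at 18.1, 17.8 and 5.92 CPM in EGFR-WT, so EGFR-WT replicate 3 lay among the EGFR-DN libraries. Gbp10 shares 62.2% of its windows with Gbp6, and the sum of both was 36.9, 51.6 and 57.5 CPM in EGFR-DN and 126, 113.6 and 72.2 CPM in EGFR-WT.

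The 3 neighbours Gm12250, Igtp and Irgm2 on chromosome 11 had a median of -0.60, and the 3 tested genes on chromosome 18, Iigp1, Gm4841 and F830016B08Rik, one of -0.93. The larger group on chromosome 11, with Irgm1, had a median of -0.16 over 8 genes, 5 below 0 and 3 above, and of -0.31 without EGFR-DN replicate 3. Among its other genes, Tgtp1 was called by DESeq2 (log2 fold change -0.84 and adjusted p = 0.0420 in that test), and Gm12185 was at 7.85, 8.88 and 27.5 CPM in EGFR-DN and at 20.1, 30.5 and 10.4 CPM in EGFR-WT, a log2 fold change of -0.47 (SE 0.57), or -1.29 without EGFR-DN replicate 3. The remaining genes of the family were Gbp4 at -0.80 (SE 0.42), Gbp5, without overlap, at -0.68 (SE 0.32), Gbp11 at -0.39 (SE 0.33) and Gbp8 at -0.03 (SE 0.34) on the log2 scale. Without EGFR-DN replicate 3 these were -1.25 for Gbp4, -0.40 for Gbp5, -0.70 for Gbp11 and -0.48 for Gbp8.

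**Figure D3:**
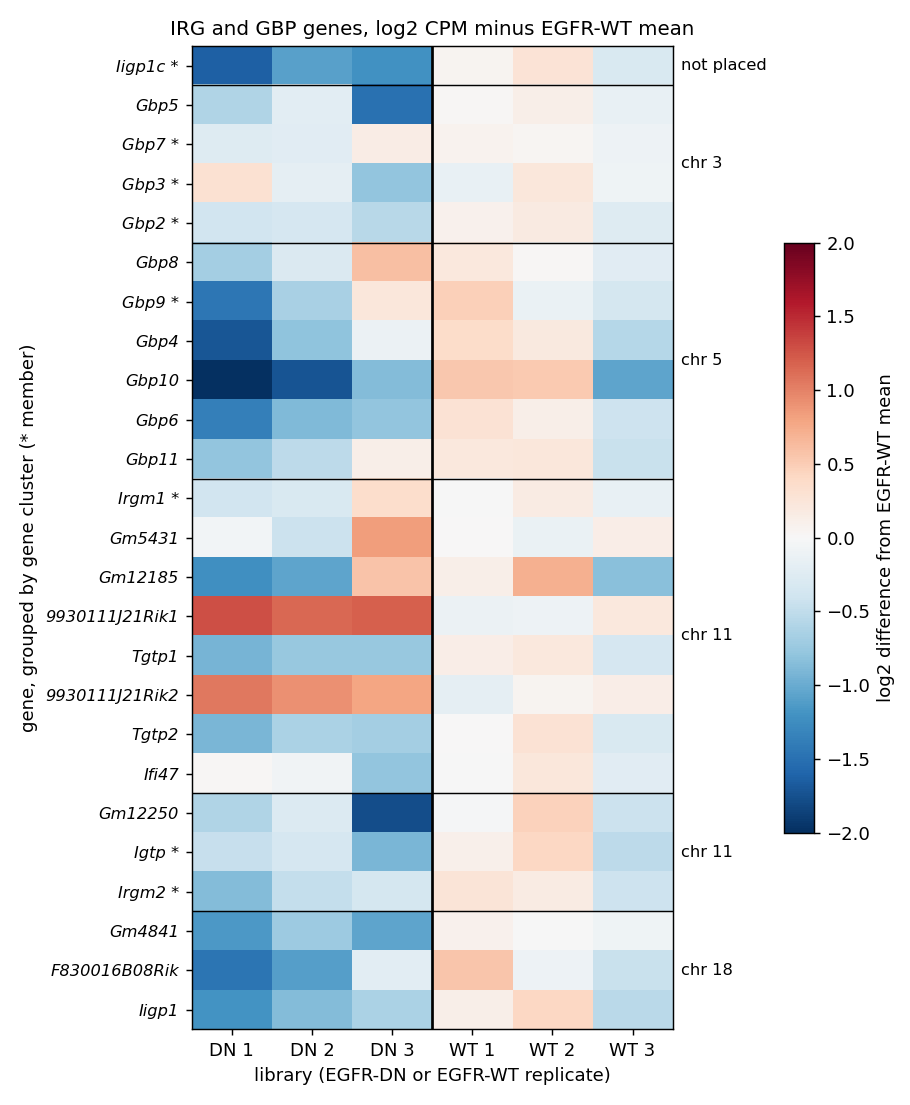
Colours give log2 CPM minus the EGFR-WT mean of each gene in the 6 libraries, EGFR-DN left of the thick line, with genes in rows grouped by neighbourhood, members marked by a star and colours capped at -2 and 2. Blue in the EGFR-DN columns covers most of the rows, 9930111J21Rik1 and 9930111J21Rik2 are red in all 3 EGFR-DN libraries, and the chromosome 5 genes in EGFR-DN replicate 3 run from -0.86 (Gbp10) to 0.60 (Gbp8).

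By a fixed rule, the genes whose profile over the 6 libraries was most like that of Iigp1c were sought among 10825 others with a mean of at least 4 CPM. The measure was the root mean square difference of log2 CPM, each gene centred on its own mean. Gbp6 came first at 0.20, then Zfp982 at 0.25, Mycn at 0.25, Mcpt8 at 0.26 and Iigp1 at 0.26. Tgtp1 stood in place 7, Tgtp2 in place 15 and Irgm2 in place 61, whereas Gbp3 stood in place 5424 and Irgm1 in place 2578. Since all 6 libraries enter, this likeness holds the difference between the groups that chose Iigp1c and is a description only.

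The other genes of the interferon pathways, from lists written with earlier results of these data known, had list medians between -0.20 and 0.36. Over all 9 such lists, that of the other IRG and GBP genes included and each gene taken once, there were 121 genes. Of those tested, 70 lay below 0 and 45 above, with a median of -0.12, or -0.06 without EGFR-DN replicate 3. By edgeR 0 had an adjusted p under 0.05, and at an unadjusted p under 0.05 there were 10 lower and 8 higher, the background shares being 2.40% and 4.30%. DESeq2 called 3 lower, Tgtp1, Gm4841 and Gbp6, and 2 higher, 9930111J21Rik1 and Irf8, against 0.138% and 0.360% of all genes, and limma-voom called 0. Without EGFR-DN replicate 3 edgeR called 1 lower, Gvin2, and 4 higher, 9930111J21Rik1, Gvin3, Irf8 and Ncf1, against 0.0552% and 0.231% of all genes.

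At the start of the pathway, the ligand genes Ifng and Ifnb1 were all but absent, at no more than 0.142 and 0.152 CPM in any library. The RNA was of the sorted cells, so ligand made by other cells was not measured. The 8 tested receptor genes, of interferons and of interleukins, lay above 0. Their median log2 fold change was 0.36, or 0.26 without EGFR-DN replicate 3. Ifngr2, a chain of the interferon-gamma receptor, was at 23.7, 22.8 and 22.8 CPM in EGFR-DN and at 14.96, 17.1 and 17.5 CPM in EGFR-WT, without overlap (log2 fold change 0.48, SE 0.14, edgeR adjusted p = 0.690). Il18rap was at 0.60 (SE 0.19), Il12rb2 at 0.41 (SE 0.19) and Ifnar2 at 0.29 (SE 0.16), and Il12rb2 was at 0.26 without EGFR-DN replicate 3. Of the 8, 5 had groups that did not overlap, all higher in EGFR-DN, against 9.21% of all genes. They were Ifngr2 and Ifnar2 of the interferon receptors and the interleukin receptor genes Il12rb1, Il12rb2 and Il18rap. Groups overlapped for the interferon receptor genes Ifngr1 and Ifnar1 and for Il18r1.

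The JAK, STAT and IRF factors that carry the signal had a median of 0.12 over 15 genes, and -0.05 without EGFR-DN replicate 3. Irf8, which directs monocyte and dendritic cell development, was at 64.7, 50.7 and 35.2 CPM in EGFR-DN and at 15.9, 23.0 and 25.8 CPM in EGFR-WT (log2 fold change 1.22, SE 0.28, edgeR adjusted p = 0.690; DESeq2 adjusted p = 0.0365). Irf2 was at 136, 144 and 352 CPM in EGFR-DN and at 135, 124 and 131 CPM in EGFR-WT, so EGFR-DN replicate 3 stood far above the other libraries behind a log2 fold change of 0.70 (SE 0.37), which was 0.10 without it. The class II activator gene Ciita was at -0.58 (SE 0.31) and Irf9 at -0.25 (SE 0.15), or -0.15 without EGFR-DN replicate 3. Inhibitors of the pathway had a median of -0.15 over 9 genes, or -0.08 without EGFR-DN replicate 3, with Cish at -0.72 (SE 0.35), Socs1 at -0.60 (SE 0.37), Ptpn2 at -0.19 (SE 0.15) and Ptpn6 at 0.18 (SE 0.14). Without that library Cish was at -1.12, Socs1 at -0.28 and Ptpn2 at -0.08.

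Other targets of interferon-gamma had a median of -0.12 over 19 genes, 14 of them below 0. Without overlap 4 were lower in EGFR-DN and 0 higher, against 8.72% and 9.21% of all genes. Slamf8 was at 0.496, 0.709 and 0.406 CPM in EGFR-DN and at 1.21, 1.84 and 1.85 CPM in EGFR-WT, and Gch1, of tetrahydrobiopterin synthesis, was at 12.5 ± 2.49 CPM in EGFR-DN and 19.2 ± 2.11 CPM in EGFR-WT (SD, n = 3 each; log2 fold change -0.62, SE 0.20). The chemokine genes Cxcl9 and Cxcl10 were at -1.004 (SE 0.47) and -0.97 (SE 0.54), and averaged 0.281 and 1.20 CPM in EGFR-DN against 0.581 and 2.30 CPM in EGFR-WT. The MHC class I genes H2-K1 and H2-D1 were at -0.27 (SE 0.23) and -0.26 (SE 0.25). Without EGFR-DN replicate 3 the values were -1.71 for Cxcl10, -0.11 for H2-K1 and -0.09 for H2-D1. Type I interferon targets had a median of -0.15 over 19 genes. Of these, 6 were lower in EGFR-DN without overlap and 1 higher, against the same 8.72% and 9.21%. Ifit1 was at -0.66 (SE 0.17), Ifit3 at -0.80 (SE 0.29), Oas2 at 1.15 (SE 0.52) and Oasl1 at 0.56 (SE 0.28). For Oas2, EGFR-DN replicate 3 was at 33.6 CPM and the other EGFR-DN libraries at 8.55 and 11.1 CPM, against 6.39, 7.97 and 9.58 CPM in EGFR-WT, and without that library its log2 fold change was 0.29.

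Other large interferon-inducible GTPases had a median of 0.03 over 5 genes, which turned to -0.09 without EGFR-DN replicate 3 and to -0.12 with library size alone. Gvin3 was at 65.4, 65.4 and 60.9 CPM in EGFR-DN and at 42.3, 45.2 and 40.9 CPM in EGFR-WT, without overlap. Its log2 fold change was 0.58 with an SE of 0.13, and edgeR gave an adjusted p of 0.690, or 0.0441 without EGFR-DN replicate 3. Mx1 was at 0.91 (SE 0.59), Mx2 at -0.20 (SE 0.30) and Gvin2 at -0.42 (SE 0.28), or -0.80 (SE 0.10) without EGFR-DN replicate 3 (edgeR adjusted p = 0.0441), when Mx1 was at 0.29 and Mx2 at -0.09. Autophagy genes that take part in placing IRG and GBP proteins had a median of -0.20 over 13 genes, and -0.02 without EGFR-DN replicate 3. Among them Gabarapl1 was at -0.64 (SE 0.35), Map1lc3a at -0.53 (SE 0.33), Atg7 at 0.36 (SE 0.22) and Ulk1 at 0.59 (SE 0.38). Without EGFR-DN replicate 3 these were -0.33 for Gabarapl1, -0.24 for Map1lc3a, 0.10 for Atg7 and -0.02 for Ulk1. Partners at pathogen vacuoles and in inflammasomes had a median of 0.12 over 12 genes. They included Nlrp3 at 2.33 (SE 0.57; 1.59 CPM in EGFR-DN and 0.314 CPM in EGFR-WT on average), Ncf1 at 0.998 (SE 0.37), Cybb at 1.27 (SE 0.67) and Traf6 at 0.58 (SE 0.34), or 0.05 without EGFR-DN replicate 3.

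**Figure D4:**
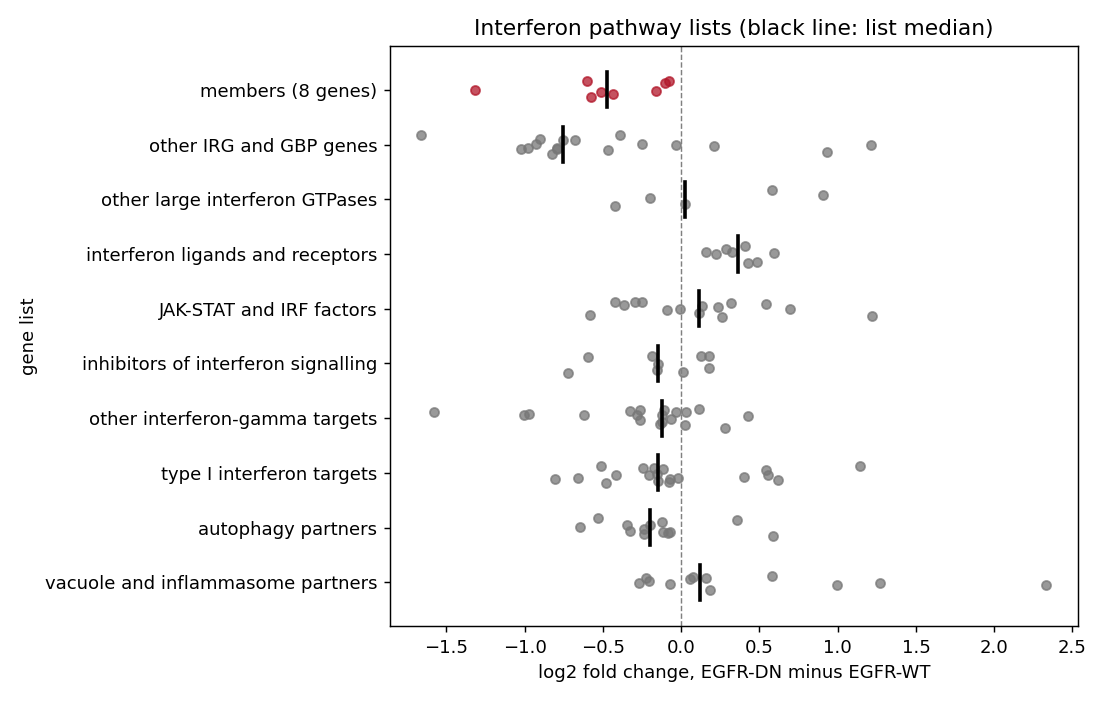
Each point is the log2 fold change, EGFR-DN minus EGFR-WT, of 1 tested gene, in rows by list, with a black line at the list median and the 8 members in red. The 2 GTPase rows at the top have medians of -0.47 and -0.75, and the other rows lie between -0.20 and 0.36.

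Markers of other cell types that could enter the sort were measured in the same libraries. For 8 neutrophil genes, summed levels were 684, 695 and 1359 CPM in EGFR-DN and 277, 453 and 343 CPM in EGFR-WT. Of these genes, 6 of 6 tested lay above 0. Mpo alone was at 653, 648 and 1261 CPM in EGFR-DN and at 262, 430 and 328 CPM in EGFR-WT, most of each sum. Ly6g, S100a8, S100a9, Camp, Ngp and Ltf did not exceed 3.91 CPM in any library. For 10 macrophage and monocyte genes the sums were 61.6, 52.5 and 32.4 CPM in EGFR-DN and 24.1, 31.0 and 30.8 CPM in EGFR-WT, with 5 of 6 tested above 0. For 7 B cell genes the sums were 50.7, 70.1 and 54.4 CPM in EGFR-DN and 36.4, 38.3 and 47.6 CPM in EGFR-WT, with 6 of 6 above 0. For 12 T and NK cell genes they were 240, 224 and 165 CPM in EGFR-DN and 129, 164 and 151 CPM in EGFR-WT, mostly from Nkg7, with 5 of 9 above 0. For 7 endothelial genes they were 251, 284 and 584 CPM in EGFR-DN and 359, 323 and 253 CPM in EGFR-WT. Vwf and Pecam1 made up most of each endothelial sum, and 3 of 6 tested genes lay above 0. No marker was at 0 in all libraries, and 7 were at 0 in some. Ly6g was at 0 in 4 libraries, Cd3e in 3, the endothelial gene Cdh5 in 2, and Cd8a (T cells), Pax5 (B cells), Adgre1 (macrophages) and Ltf (neutrophils) in 1 each. These sums do not tell cells of another type from transcript made by the sorted cells themselves. The part of such cells in the levels of the GTPase genes was not tested.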

How the data were processed

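The values deposited by the authors are estimated counts by gene symbol, not scaled between libraries and whole numbers in 79.4% of cases. Per the submitters' processing notes, DRAGEN, DESeq2 1.40.2, R 4.3.1 and build mm39 were used. How reads were annotated and stranded was not given in the sources used here. Protocols in the labels state 10 ng of RNA, cDNA primed with oligo(dT) and single reads of 75 bases. Columns from other samples numbered 0.

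The design had assumed counts as deposited or rounded, and the estimated counts were rounded. Genes were filtered with filterByExpr, scaled by TMM and compared, EGFR-DN minus EGFR-WT, with a quasi-likelihood fit (two-sided) in edgeR 4.0.16, run under R 4.3.3, adjusted by Benjamini-Hochberg over all 19313 genes tested (threshold 0.05). A standard error (SE) was taken as the absolute log2 fold change over the root of its F statistic. No pair of libraries was a duplicate (smallest chi-square per degree of freedom 14.9). Nothing says that replicates were separate animals, so p-values measure only a spread between samples that may be technical. A floor of 3 counts is 0.0833 to 0.125 per 10⁶ total counts and covers counting error only. Differences from the EGFR-WT mean used log2 CPM with a prior count of 2.

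Members and lists were chosen with earlier results of these data known. Named were the 8 members, family genes with a mean of at least 1 CPM, up to 4 genes per other list by smallest unadjusted p, Egfr, and the 5 genes most like Iigp1c. Other genes named, such as markers and called genes, were chosen after their values were seen. Of the list genes, 2 were matched through another symbol and 2 not found. Lengths, shared windows (exact matches of 75 bases, either strand, to transcripts of other genes in the table) and neighbourhoods came from GENCODE M21, and promoters from RefSeq, both of GRCm38, a build other than mm39. Alternatives were DESeq2 1.42.0 size factors, upper-quartile scaling, scaling by library size only, DESeq2's Wald test, limma-voom (limma 3.58.1), no filter, at least 50 counts in 3 libraries, a block for replicate number, removal of 8 rRNA-like genes, each library left out, and another transcript length. The fit was checked on simulated counts.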

Additional observations from a re-analysis of the deposited data

How the results depend on the processing

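The log2 fold change of Iigp1c and the median of the 8 members kept their direction in all 15 alternative fits, and with 1 library left out they ranged from -1.46 to -1.17 and from -0.62 to -0.33. Irgm1 and Gbp3 did not keep theirs. The number of genes past the threshold was 1, against 108 with the Wald test of DESeq2 and 0 with limma-voom, and 0 to 57 with 1 library left out: 57 without EGFR-DN replicate 3, and 0 without EGFR-WT replicate 1, 2 or 3. Among the other IRG and GBP genes DESeq2 called 4, and with 1 library left out 0 to 1 were called. Among JAK-STAT and IRF factors it called 1, against 0 to 1, with 0 to 2 for the other large GTPases and 0 to 1 for vacuole and inflammasome partners.

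Library size alone moved the median of all genes to -0.10, from 0.01, and gave list medians of 0.23 for ligands and receptors, -0.029 for JAK-STAT and IRF factors, -0.21 for inhibitors, -0.26 for type I targets and -0.0030 for vacuole and inflammasome partners, and of -0.12 for the other large GTPases. With no filter the type I median was -0.19 and that of the other large GTPases -0.03. With 1 library left out the medians ranged from -0.095 to 0.208 for the other large GTPases, from -0.053 to 0.149 for JAK-STAT and IRF factors, from -0.192 to -0.071 for inhibitors, from -0.29 to -0.01 for other interferon-gamma targets and from -0.20 to -0.11 for type I targets. The median coding length gave 54.4, 40.4, 24.4 and 6.88 CPM per kilobase for Irgm1, Gbp7, Gbp3 and Gbp9. The cause of these moves was not tested.

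No sign of pairing by replicate number was seen: deviations of same-numbered libraries correlated across genes at -0.019, 0.055 and 0.064. Those of libraries with unlike numbers correlated at -0.089 to 0.082. Such values cannot exclude that samples were paired. With the replicate block 1 gene was called, Iigp1c was at -1.32 and the median of the members at -0.50. With 3 libraries a group, differences as small as those of Gbp7 and Irgm1 were not detectable beyond the spread.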
